A study of Mus musculus with 5 samples.

Results

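The genes described here are the 10 enzymes and activators that make or break down prostaglandins and leukotrienes: Ptgs1, Ptgs2, Ptgds, Hpgds, Ptges, Hpgd, Alox5, Alox5ap, Lta4h and Ltc4s. They were taken by name from the 31626 genes for which an FPKM value (sequenced fragments divided by gene length and by library size) is given in each of 5 mouse RNA sequencing libraries. Hpgds has the older symbol Ptgds2 in the files and was matched by its Ensembl identifier. The cells were common myeloid progenitors of C57Bl/6 mice, blood progenitors upstream of granulocytes, monocytes, red cells and platelets, which a retrovirus carrying the leukaemia gene MN1 and GFP had transformed. They were grown with serum, IL3, IL6 and SCF. The knockout group (n = 2) was labelled Mll1 -/- and had been transduced with Cre. The control group (n = 3) was Mll1 flox/flox and had been transduced with a control. Cells of both groups carried MN1 and were sorted on day 7. No cells with unfloxed Mll1 given Cre were analysed here, so exposure to Cre and loss of Mll1 cannot be told apart. Nothing in the labels states that replicates are separate animals or cultures; the p-values below therefore reflect the spread between these libraries alone, which may be technical.

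Prostaglandins and leukotrienes are short-lived lipid signals made from arachidonic acid, a fatty acid that phospholipases release from membranes. Cyclooxygenases turn it into prostaglandin H, from which terminal synthases make prostaglandins D and E and other prostanoids, and 15-hydroxyprostaglandin dehydrogenase starts their breakdown. In the other branch, 5-lipoxygenase and its activating protein make leukotriene A, which a hydrolase turns into leukotriene B, an attractant of neutrophils, and a synthase into leukotriene C, a mediator of mast cells, basophils and eosinophils. Mll1, now named Kmt2a, encodes a methyltransferase of histone H3 whose CXXC domain binds unmethylated CpG dinucleotides.

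The 250 bases before the annotated start are shown for the 3 genes whose change passed the test, Hpgd, Ptgds and Ptgs1, and for Ptgs2, the second cyclooxygenase, as a contrast to Ptgs1. They come from RefSeq (GRCm38.p6), not from the mm9 build that the submitters' processing notes name. The bases just after the start were found in a GENCODE M21 transcript of each gene shown except Hpgd. The CpG count and motif positions of Hpgd therefore rest on the RefSeq start alone. Capitals mark each CpG. Hpgd lies at chr8:56294302-56294551 (plus strand), Ptgds at chr2:25469750-25469999 (minus strand), Ptgs1 at chr2:36230176-36230425 (plus strand) and Ptgs2 at chr1:150099781-150100030 (plus strand).
Hpgd: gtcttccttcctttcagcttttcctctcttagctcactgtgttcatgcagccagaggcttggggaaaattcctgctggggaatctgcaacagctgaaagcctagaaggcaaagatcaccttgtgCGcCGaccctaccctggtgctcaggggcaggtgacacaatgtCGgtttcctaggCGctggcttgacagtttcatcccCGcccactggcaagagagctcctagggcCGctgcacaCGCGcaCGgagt
Ptgds: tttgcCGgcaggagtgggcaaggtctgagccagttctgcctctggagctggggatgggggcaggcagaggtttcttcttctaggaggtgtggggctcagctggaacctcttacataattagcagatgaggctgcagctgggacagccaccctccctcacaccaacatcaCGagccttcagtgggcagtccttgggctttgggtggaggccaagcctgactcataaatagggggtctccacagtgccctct
Ptgs1: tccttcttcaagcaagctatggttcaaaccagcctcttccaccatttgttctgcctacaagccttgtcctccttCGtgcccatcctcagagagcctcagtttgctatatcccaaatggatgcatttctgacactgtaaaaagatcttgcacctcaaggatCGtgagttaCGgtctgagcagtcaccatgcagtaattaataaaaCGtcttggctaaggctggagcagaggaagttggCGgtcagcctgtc
Ptgs2: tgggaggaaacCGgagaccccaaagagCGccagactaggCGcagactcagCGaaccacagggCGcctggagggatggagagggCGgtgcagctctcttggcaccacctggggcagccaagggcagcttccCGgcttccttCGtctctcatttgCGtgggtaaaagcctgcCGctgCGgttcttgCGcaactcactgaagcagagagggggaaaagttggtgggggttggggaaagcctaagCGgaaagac
Hpgd had 9 CpG in this window, Ptgds 2, Ptgs1 5 and Ptgs2 13. The median over 32841 such windows of 27018 genes was 6, with quartiles of 2 and 16, so all 4 counts lay within the quartiles. Of the members, 9 had a window in the table, and their counts ran from 2 in Ptgds to 13 in Ptgs2. Each window was also searched on both strands for the letters of 4 motifs, and the matches in the members' windows did not overlap one another. TGACAG, the core of MEIS sites, matched in Hpgd at -64 (leftmost base, counted back from the start) and in no other member, against 15.9% of all windows. TTNCNNAA, a loose C/EBP pattern, matched in Hpgd at -192, in Ptgds at -141 and in Ptgs2 at -69 and -25, and in Hpgds and Ptges as well, against 36.9% of all windows. AGATAA, the GATA pattern (9.99% of all windows), and TGATTNAT, a HOX-PBX pattern (2.83%), matched in none of the 9.

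The gene that Cre was to delete was lower in both knockouts. Mll1 had 6.22 and 5.32 FPKM in the knockouts, against 9.67, 7.28 and 7.19 FPKM in control replicates 1, 2 and 3, a log2 change of -0.41 that was not called (limma adjusted p = 0.158). All 9 stem and progenitor markers examined, among them Cd34 and Kit, were above 1 FPKM in every library. Control replicate 1 stood apart from the other controls in mature neutrophil markers: the summed level of the 14 examined was 22461 and 20727 FPKM in the knockouts, against 6438 FPKM in control replicate 1 and 824 and 1083 FPKM in control replicates 2 and 3. S100a8 and S100a9 carried most of these sums; against control replicate 1 alone, both knockouts were higher in 9 of the 14 and lower in 3, Camp, Ltf and Ngp. The files hold no counts, so the number of fragments behind a value is unknown. By genes below 2 FPKM, 1 read was worth 0.98 to 1.018 times as much in the other 4 libraries as in control replicate 1. This ratio was sought only near 1, and 5.84% to 6.93% of the genes used lay at it. A larger difference in depth could not have been found this way, so relative depth stays uncertain.

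Of the prostaglandin genes, the breakdown enzyme gene Hpgd and the synthase gene Ptgds fell in the knockouts and the cyclooxygenase gene Ptgs1 rose, and no member of the leukotriene branch was called. Each log2 change is the knockout mean less the control mean of log2(FPKM + 1), a scale on which low genes appear to change less than they do in FPKM. They were tested with limma over the 11780 genes that reached 1 FPKM in 2 or more libraries, with Benjamini-Hochberg adjustment, and called at an adjusted p under 0.05. Of the 10 members, 9 were tested and 3 were called, 1 upward and 2 downward, where 9.79% of all genes tested were called, 3.82% upward and 5.97% downward. Ptgds and Ptgs2 reached the filter through the controls alone, so these counts are a description and lend no weight to any of the calls. The median log2 change was -0.31 over the 9 members and -0.03 over all genes tested.

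**Figure D1:**
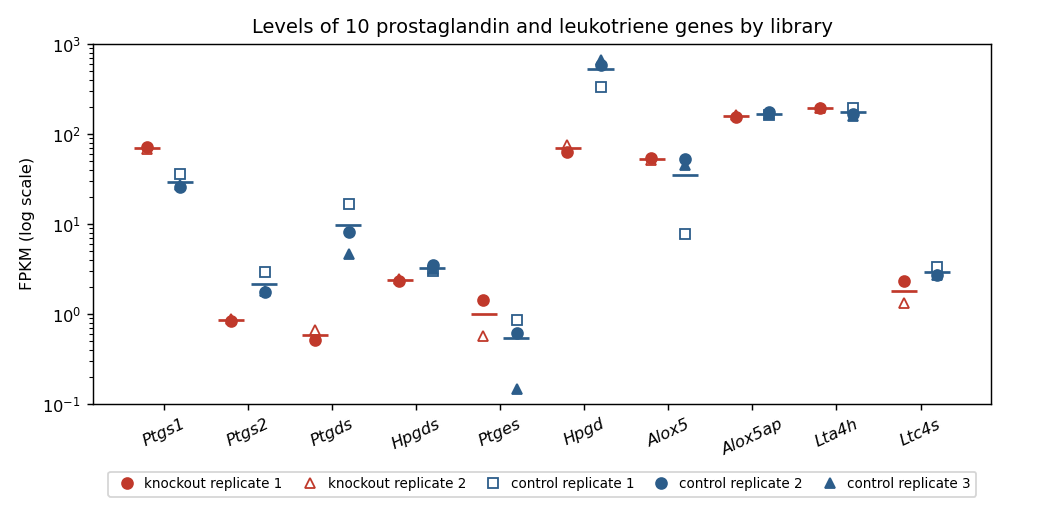
FPKM (log axis) of the 10 members in each library, with knockouts to the left of controls and short lines at group means. Hpgd, Ptgds, Ptgs2, Hpgds, Alox5ap and Ltc4s lie lower in both knockouts than in every control, and Ptgs1 lies higher. Of all genes tested, 29.4% lay lower in this way and 22.9% higher. Alox5 of control replicate 1 (7.69 FPKM) lies far below the other libraries.

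Hpgd (ENSMUSG00000031613) encodes 15-hydroxyprostaglandin dehydrogenase, which inactivates prostaglandin E and related prostanoids. It stood at 63.7 and 76.2 FPKM in the knockouts, against 334, 590 and 656 FPKM in control replicates 1, 2 and 3. The groups lay far apart, with control replicate 1 nearest to the knockouts. The mean was 70.0 ± 8.86 FPKM in the knockouts (SD, n = 2) and 527 ± 170 FPKM in the controls (SD, n = 3), which is 7.53-fold lower in the knockouts. The log2 change was -2.84 with a standard error of 0.32 (limma adjusted p = 0.0153), the 31st lowest of the 11780. Its level passed that of 86.5% of the genes tested in the knockouts and of 99.1% in the controls, where it was the highest of the 10 members.

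Both prostaglandin D synthases were lower in each knockout library than in each control, but only Ptgds was called. Ptgds (ENSMUSG00000015090) encodes the lipocalin-type synthase. It stood at 0.517 and 0.657 FPKM in the knockouts, against 16.7, 8.13 and 4.68 FPKM in control replicates 1, 2 and 3. The knockouts were close to each other, whereas the controls spread widely, with control replicate 1 the highest. Mean FPKM was 16.8-fold lower in the knockouts, at 0.587 ± 0.0985 FPKM (SD, n = 2), than in the controls, at 9.84 ± 6.18 FPKM (SD, n = 3). The log2 change was -2.62 with a standard error of 0.48 (limma adjusted p = 0.0389).

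Hpgds (ENSMUSG00000029919), the glutathione-dependent haematopoietic synthase known from mast cells, stood at 2.34 and 2.44 FPKM in the knockouts, against 2.98, 3.50 and 3.16 FPKM in the controls. The groups did not overlap, and the gap between them was smaller than for Ptgds. Its log2 change of -0.31 had a 95% interval from -0.60 to -0.03 and was not called (limma adjusted p = 0.142). Ptgds made up 18.1% and 21.2% of the summed FPKM of the 2 synthases in the knockouts, against 84.8%, 69.9% and 59.7% in control replicates 1, 2 and 3. Hpgds was thus the more abundant of the pair in both knockouts, and Ptgds in all 3 controls. A two-sided exact permutation test of these shares over 10 splits gave p = 0.1, the smallest that it allows with 2 libraries against 3.

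Of the 2 cyclooxygenase genes, Ptgs1 rose and Ptgs2 was not called. Ptgs1 (ENSMUSG00000047250), the constitutive enzyme, stood at 71.0 and 68.2 FPKM in the knockouts, against 36.1, 25.5 and 26.7 FPKM in control replicates 1, 2 and 3. Both knockouts lay above every control, and control replicate 1 was the highest control. The mean was 69.6 ± 1.99 FPKM in the knockouts (SD, n = 2) and 29.5 ± 5.80 FPKM in the controls (SD, n = 3), 2.36-fold higher in the knockouts. The log2 change was 1.23 with a standard error of 0.16 (limma adjusted p = 0.0206). Ptgs1 shares exon sequence with a gene on the opposite strand (Gm43621, in GENCODE M21), and the use of strand in the counting is not given in the sources used here, so reads of that partner may enter its value.

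Ptgs2 (ENSMUSG00000032487), the inducible cyclooxygenase, stood at 0.829 and 0.874 FPKM in the knockouts, against 2.94, 1.74 and 1.81 FPKM in the controls. The knockouts lay below every control, yet the log2 change of -0.75 (95% interval -1.27 to -0.23) was not called (limma adjusted p = 0.0813). It passed without control replicate 1, with a log2 change of -0.58 and an adjusted p of 0.0256. Ptgs1 supplied 98.9% and 98.7% of the summed cyclooxygenase FPKM in the knockouts, against 92.5%, 93.6% and 93.6% in the controls (two-sided exact permutation p = 0.1, the smallest of 10 splits). That sum was 71.8 and 69.1 FPKM in the knockouts and 39.1, 27.3 and 28.5 FPKM in the controls.

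**Figure D2:**
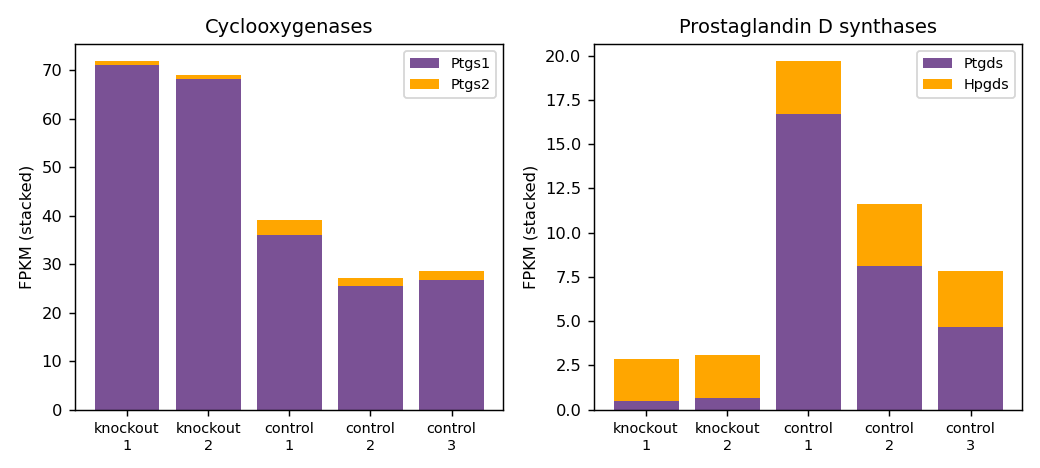
Stacked FPKM of the 2 cyclooxygenase genes (left) and the 2 prostaglandin D synthase genes (right) in each library, on a linear axis from 0. Ptgs1 fills nearly all of the cyclooxygenase bars, which are taller in the knockouts, and the Ptgds part is 0.517 and 0.657 FPKM in the knockouts against 4.68 to 16.7 FPKM in the controls.

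Ptges, the inducible membrane-bound prostaglandin E synthase, was the member that missed the filter. It stood at 1.42 and 0.564 FPKM in the knockouts, against 0.858, 0.610 and 0.145 FPKM in the controls. The groups overlapped, and no test was made.

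No gene of the leukotriene branch was called, and in 1 of them, Alox5, a single control library stood far from all others. Alox5, which encodes 5-lipoxygenase, stood at 54.3 and 51.1 FPKM in the knockouts, against 7.69, 52.6 and 45.7 FPKM in control replicates 1, 2 and 3. The knockouts overlapped control replicates 2 and 3, and control replicate 1 was 2.53 lower than their mean on the log2 scale. The log2 change of 0.94 carried a wide 95% interval, from -1.20 to 3.09 (limma adjusted p = 0.503), and it was 0.10 without control replicate 1 (adjusted p = 0.426).

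Alox5ap, the activating protein that presents arachidonic acid to 5-lipoxygenase, stood at 154 and 160 FPKM in the knockouts, against 164, 173 and 168 FPKM in the controls. Its log2 change of -0.10 had a 95% interval from -0.29 to 0.09 (limma adjusted p = 0.422), so a change of 1 on the log2 scale in either direction lies outside that interval. Alox5ap overlaps Gm19719 and Ltc4s overlaps Gm26542 on the opposite strand, with the same limit as for Ptgs1. Lta4h, the hydrolase that makes leukotriene B, stood at 193 and 197 FPKM in the knockouts, against 196, 169 and 158 FPKM in control replicates 1, 2 and 3. The groups overlapped through control replicate 1, and the log2 change was 0.17 (95% interval -0.12 to 0.46, limma adjusted p = 0.378). Without control replicate 1 it was 0.26 with an adjusted p of 0.0384.

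Ltc4s, the leukotriene C synthase, was low in all libraries, at 2.29 and 1.32 FPKM in the knockouts and 3.33, 2.72 and 2.72 FPKM in the controls. Both knockouts lay below the controls, and they differed from each other by more than the controls did. The log2 change of -0.50 (95% interval -0.99 to -0.01) was not called (limma adjusted p = 0.159). Over the 9 members tested, the groups did not overlap in 7, with Ptgs1 above the controls and Ptgs2, Ptgds, Hpgds, Hpgd, Alox5ap and Ltc4s below. Among all genes tested 52.4% did not overlap (22.9% with the knockouts above, 29.4% with the knockouts below), and the members' count is read against that share.

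**Figure D3:**
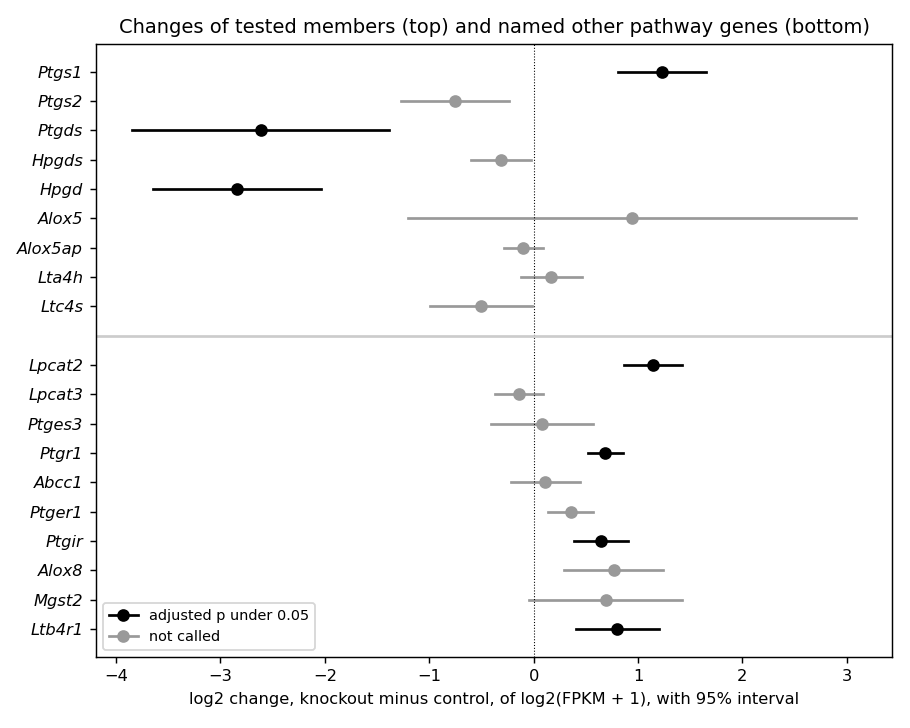
Log2 change, knockout minus control, of log2(FPKM + 1), with its 95% interval from limma, for the 9 tested members (top) and 10 other pathway genes (bottom); black marks an adjusted p under 0.05. Hpgd and Ptgds lie at -2.84 and -2.62, Ptgs1 at 1.23, and the interval of Alox5 runs from -1.20 to 3.09.

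The order of the levels, which FPKM allows because it is scaled to gene length, differed between the groups mainly through Hpgd and Ptgds. In the knockouts Lta4h led, followed by Alox5ap, Hpgd, Ptgs1, Alox5, Hpgds, Ltc4s, Ptges, Ptgs2 and Ptgds. Of these neighbours, Hpgd and Ptgs1 overlapped, as did Ltc4s with Ptges and Ptges with Ptgs2. In the controls Hpgd led, followed by Lta4h, Alox5ap, Alox5, Ptgs1, Ptgds, Hpgds, Ltc4s, Ptgs2 and Ptges. Lta4h and Alox5ap overlapped there, as did Alox5 with Ptgs1, Hpgds with Ltc4s and Ltc4s with Ptgs2. Hpgd ranked 3 in the knockouts and 1 in the controls, and Ptgds 10 in the knockouts and 6 in the controls.

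In several members the first control library stood away from the other controls, not always toward the knockouts. Against the mean of control replicates 2 and 3 on the log2 scale, the knockouts stood at -3.14 and control replicate 1 at -0.89 for Hpgd. For Ptgs1 these values were 1.38 in the knockouts and 0.45 in control replicate 1. For Ptgds they ran in opposite directions, -2.18 in the knockouts and 1.30 in control replicate 1, and likewise for Ptgs2, -0.58 in the knockouts and 0.51 in control replicate 1. Without this library the 3 calls stayed, with limma adjusted p = 0.00305 for Hpgd and Ptgs1 and 0.0131 for Ptgds. Ptgs2 and Lta4h joined them, where the calls over all 11780 genes tested went from 1153 to 3516. All 3 calls were lost without any 1 of the other 4 libraries, while their direction stayed. Calls over all 11780 genes tested also fell, from 1153 to 111 without control replicate 2 and 204 without control replicate 3. The limma adjusted p of Hpgd was then 0.0661 and 0.0540 in turn. That of Ptgs1 was 0.0703 and 0.0743, and that of Ptgds 0.114 and 0.0542. Where a knockout is left out, that group holds 1 library. Without knockout replicates 1 and 2 in turn, the log2 change was -2.71 and -2.97 for Hpgd. It was 1.20 and 1.26 for Ptgs1 and -2.55 and -2.68 for Ptgds. The Ptgs1 and Ptgds calls were also lost with no filter on low values (adjusted p = 0.0531 and 0.0924), and the Ptgds call with a pseudocount of 5 (log2 change -1.33, adjusted p = 0.0732).

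**Figure D4:**
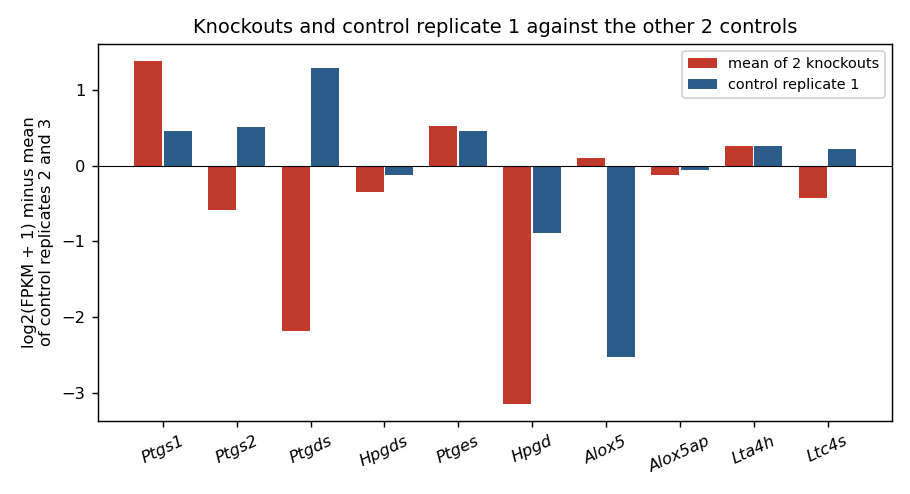
Difference from the mean of control replicates 2 and 3 on the log2(FPKM + 1) scale, for the mean of the 2 knockouts (left bars) and for control replicate 1 (right bars), by gene. Control replicate 1 lies 2.53 lower for Alox5 and 0.89 lower for Hpgd, and 1.30 higher for Ptgds.

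Markers of several blood cell types differed in level between the groups alongside these genes, and their part in the results was not tested. Sums follow the most abundant markers, so the number of markers in which both knockouts lay above or below every control is given beside them. Among all genes tested, 22.9% lay above every control and 29.4% below, and the marker counts are read against these shares. Some counted markers, such as Tpsab1, Gp1bb and Vwf, were below 1 FPKM in all libraries and so not among the genes tested. In a bulk sample, fewer cells of a type and less RNA per cell cannot be told apart. The summed level of the 9 stem and progenitor markers was 530 and 505 FPKM in the knockouts and 1095 to 1370 FPKM in the controls, lower in the knockouts as Hpgd and Ptgds were; 7 of the 9 lay below every control and Ly6a above. Beside Ptgs1, which was higher in the knockouts, stand 5 promyelocyte markers at 6009 and 6460 FPKM in the knockouts and 2549 to 3326 FPKM in the controls, all 5 above every control, and the 14 mature neutrophil markers, of which 6 lay above every control and 8 overlapped. Of the neutrophil markers, 14 were above 0 in each knockout and 13 in each control. The 13 mast cell, basophil and eosinophil markers, which include 5 below 1 FPKM in all libraries, summed to 1434 and 1464 FPKM in the knockouts and 725 to 977 FPKM in the controls, with 9 of the 13 above every control, whereas Hpgds was not higher in the knockouts. The 10 megakaryocyte markers, whose Gp6 was listed at 0 throughout, summed to 48.3 and 40.4 FPKM in the knockouts and 59.2 to 91.7 FPKM in the controls, with Itga2b and Itgb3 below every control and Gp1bb and Vwf above. The 9 monocyte and macrophage markers summed to 321 and 282 FPKM in the knockouts and 90.2 to 285 FPKM in the controls. Ly6c2, at 267 and 225 FPKM in the knockouts and 34.5 to 173 FPKM in the controls, made up most of the knockout sums; it and Cd14 lay above every control, and Irf8, Ccr2 and Cx3cr1 below. Irf8 stood at 0.778 and 0.826 FPKM in the knockouts, against 4.58 to 5.67 FPKM in the controls. The 9 erythroid markers summed to 41.4 and 40.0 FPKM in the knockouts and 22.0 to 50.2 FPKM in the controls, where control replicate 1 was highest through the globins Hba-a1 and Hbb-b1. Gata1, Klf1, Epor and Alas2 lay above every control, Gata1 at 14.6 and 14.1 FPKM in the knockouts and 8.85 to 9.80 FPKM in the controls, and none of the 9 lay below. Of 7 lymphoid markers, 6 were below 1 FPKM in all libraries; the exception was Rag2 at 0.508 and 0.599 FPKM in the knockouts and 2.42 to 3.40 FPKM in the controls. Rag2, Il7r, Rag1 and Cd79a lay below every control, as Hpgd and Ptgds did. Of 6 stromal and endothelial markers 5 were below 1 FPKM in all libraries, the exception being Pecam1 at 38.9 and 39.8 FPKM in the knockouts and 39.7 to 54.8 FPKM in the controls.

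Beyond the 10 members, 69 further genes of arachidonic acid release, eicosanoid synthesis, breakdown, transport and reception were examined, of which 35 were tested. Of these, 4 rose and none fell in limma, where 3.82% of all genes tested rose and 5.97% fell. An unadjusted p under 0.05 was found in 18 of the 35 and in 3511 of all 11780 genes tested. The median log2 change of the 35 was 0.08, against -0.03 over all genes tested. Tbxas1 and Alox8 reached the filter through the knockouts alone, so the counts and the median of the 35 are a description. Over all genes tested, 3516 of 11780 were called without control replicate 1, of which 1398 rose and 2118 fell. Among the 35 the count called was then 19, of which 12 rose and 7 fell. It was 0 without control replicate 2 in limma (14 at an unadjusted p under 0.05), and 1, Lpcat2, without control replicate 3. Over all genes tested, 111 were called without control replicate 2 and 204 without control replicate 3. An unadjusted p under 0.05 was then found in 2908 and 3101 of all 11780. The 4 calls were also lost without either knockout replicate, where that group holds 1 library. Without knockout replicates 1 and 2 in turn, the log2 change was 1.16 and 1.13 for Lpcat2 and 0.68 and 0.69 for Ptgr1. It was 0.66 and 0.63 for Ptgir and 0.75 and 0.85 for Ltb4r1. With no filter on low values Ptgir and Ltb4r1 were not called (limma adjusted p = 0.0762 and 0.0922).

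Among genes of arachidonic acid release and membrane handling, 1 of 11 tested rose. Lpcat2, an acyltransferase that remodels phospholipids and makes platelet-activating factor, stood at 18.0 and 18.3 FPKM in the knockouts, against 8.69, 7.29 and 7.08 FPKM in the controls (log2 change 1.14, limma adjusted p = 0.0125). It overlaps Gm45472 on the opposite strand. Lpcat3, an acyltransferase that puts arachidonic acid into phospholipids, stood at 69.7 and 72.1 FPKM in the knockouts, against 73.3, 76.6 and 85.2 FPKM in the controls, with no call (adjusted p = 0.363). It overlaps Emg1, which is more abundant. Of 8 other prostanoid synthesis genes none was called, and 1, Tbxas1, had an unadjusted limma p under 0.05. Tbxas1, chosen after its values were seen, stood at 1.35 and 1.22 FPKM in the knockouts, against 0.907, 0.620 and 0.462 FPKM in the controls. It reached the filter through the knockouts alone. The most abundant of the 8 was Ptges3, the cytosolic prostaglandin E synthase and Hsp90 cochaperone. It stood at 59.5 and 68.7 FPKM in the knockouts and 49.8, 58.7 and 75.4 FPKM in the controls (adjusted p = 0.814).

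Downstream of Hpgd, 1 prostaglandin reductase rose. Ptgr1, which reduces the keto-prostaglandins that Hpgd makes and also inactivates leukotriene B, stood at 69.1 and 68.6 FPKM in the knockouts, against 43.5, 42.4 and 41.5 FPKM in the controls. The knockouts were 1.62-fold higher in mean FPKM, with little spread in either group (log2 change 0.69, limma adjusted p = 0.0127). The 2 other reductases of the list, chosen after their values were seen, were lower in the knockouts but not called. Ptgr2 stood at 21.0 and 24.1 FPKM in the knockouts, against 28.4, 31.4 and 32.5 FPKM in the controls (adjusted p = 0.0621). Zadh2 stood at 18.4 and 18.3 FPKM in the knockouts, against 42.1, 30.0 and 27.6 FPKM in the controls (adjusted p = 0.0637). Abcc1, an exporter of leukotriene C, stood at 32.1 and 31.9 FPKM in the knockouts, against 25.1, 32.0 and 31.9 FPKM in the controls (adjusted p = 0.606). Slco2a1, the prostaglandin transporter that brings prostaglandins to Hpgd, was listed at 0 in all 5 libraries.

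Receptor genes had 2 members that rose, 1 in each branch. Ptgir, the prostacyclin receptor, stood at 7.00 and 7.17 FPKM in the knockouts, against 4.53, 3.84 and 4.18 FPKM in the controls (log2 change 0.64, limma adjusted p = 0.0279), 1 of 5 prostanoid receptors tested. Ltb4r1, the high-affinity leukotriene B receptor known from neutrophils, was at 27.6 and 25.6 FPKM in the knockouts, against 14.5, 17.9 and 12.6 FPKM in the controls (log2 change 0.80, adjusted p = 0.0429). It was the 1 leukotriene or lipoxin receptor tested of 5 listed; the others stayed at or below 0.854 FPKM. Ptger1, a prostaglandin E receptor, stood at 35.8 and 33.2 FPKM in the knockouts, against 25.1, 28.0 and 27.1 FPKM in the controls, with no overlap and no call (log2 change 0.36, adjusted p = 0.0623), and with the same limit on strand as for Ptgs1. Its adjusted p was 0.0364 under median-ratio scaling, 0.0457 after quantile normalization and 0.0317 without control replicate 1, and it ran up to 0.401 over the other alternatives.

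Of 8 other lipoxygenases and epoxide hydrolases, Alox8 alone was tested. It stood at 1.36 and 1.32 FPKM in the knockouts, against 0.153, 0.532 and 0.461 FPKM in the controls (adjusted p = 0.0649) and reached the filter through the knockouts alone. Of 4 genes tested for leukotriene conjugation, breakdown and transport, none was called in limma and 2 had an unadjusted p under 0.05. Mgst2, a microsomal glutathione transferase that can make leukotriene C, stood at 100.2 and 101.1 FPKM in the knockouts, against 91.6, 54.5 and 47.8 FPKM in control replicates 1, 2 and 3 (adjusted p = 0.188). In this gene control replicate 1 stood nearer to the knockouts than to the other controls, and without it the adjusted p was 0.00702.

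Hpgd was also set beside all genes tested, by the root mean square difference over the 5 libraries of log2(FPKM + 1) after each gene's own mean was taken off. The nearest was Mef2c, a transcription factor gene of myeloid and lymphoid progenitors, at a distance of 0.25. It stood at 3.46 and 3.39 FPKM in the knockouts, against 15.6, 26.3 and 26.4 FPKM in control replicates 1, 2 and 3, and so shared with Hpgd the lower value in control replicate 1. Mpdz, which encodes a scaffold protein with PDZ domains, followed at 0.33 and Nrgn, a calmodulin-binding protein gene, at 0.36. Mpdz stood at 0 and 0.00397 FPKM in the knockouts, against 3.15, 7.93 and 4.43 FPKM in control replicates 1, 2 and 3. It reached the filter through the controls alone, and the size of its change depends on the 1 that is added to FPKM. The other 2 of the nearest 5 were the small RNA genes 5S_rRNA (0.34) and U11 (0.36), both listed at 0 in the knockouts. These distances rest on 5 libraries and are a description.

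**Figure D5:**
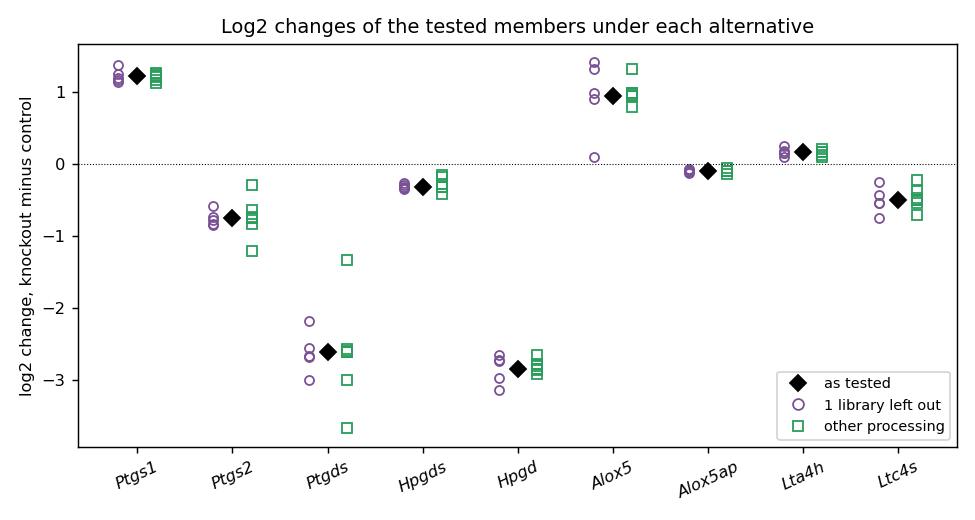
Log2 change of each tested member as tested (diamonds), with 1 library left out (circles) and under other processing (squares). No member changes sign; Ptgds runs from -3.67 to -1.33, Hpgd from -3.14 to -2.65 and Alox5 from 0.10 to 1.41.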

How the data were processed

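RNA was measured in 5 libraries prepared with a stranded mRNA kit, per the labels' protocols. The deposited values are FPKM per Ensembl gene, 1 file per library; per the submitters' processing notes, Cuffdiff, GSNAP, SAMtools, CASAVA 1.8.2 and the build mm9 were used. The annotation, the treatment of reads that map to several places and any use of strand in counting were not given in the sources used here. Absolute depth is unknown. In 16 genes at least 1 library held 999999999, taken as a failed estimate, and these genes were left out.

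The 11780 genes that reached 1 FPKM in 2 or more libraries were tested on log2(FPKM + 1) by limma 3.58.1 (R 4.3.3), with an intensity trend and Benjamini-Hochberg adjustment over all of them. The step was tested on simulated data. Alternatives covered the pseudocount, filter, scaling, intensity trend, replicate block and each library left out. Of other pathway genes, those called and the most abundant uncalled gene of each role are named, besides those said to be chosen later. The members and gene lists were chosen with earlier results of these data known. Overlaps come from GENCODE M21 and promoters from RefSeq.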

Additional observations from a re-analysis of the deposited data

How the results depend on the processing

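Every tested member kept its direction under all alternatives run. The median log2 change of the members was -0.15 with a pseudocount of 5, -0.18 after quantile normalization and 0.035 over the 6 members with a mean of at least 5 FPKM; that filter removes Ptgs2, Hpgds and Ltc4s. With no filter on low values, 497 genes and 1 member (Hpgd) were called. Median-ratio scaling called 7 of the 35 other pathway genes tested (6 rose, 1 fell). Under that scaling 1218 of all 11780 genes tested were called (597 rose, 621 fell). With each library left out in turn, the count of genes called ran from 0 (in limma without knockout replicate 2, with 1669 at an unadjusted p under 0.05) to 3516 without control replicate 1, that of members from 0 (with 3 or 4 at an unadjusted p under 0.05) to 5, and that of other pathway genes from 0 to 19; the member median ran from -0.35 to -0.25. Among uncalled pathway genes, Ptges3 ran from -0.057 (without control replicate 1; -0.023 without knockout replicate 2) to 0.24 and Abcc1 from -0.00042 to 0.17. The cause of these moves was not tested. Where a library is left out of the knockouts, the lone library is assumed to vary like the controls.

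The groups share replicate numbers 1 and 2, but no label says that they mark a shared culture. Deviations of same-numbered libraries correlated at 0.037 and 0.012 across genes, and those of control replicate 3 and knockout replicate 2 at 0.034. With 2 knockouts, their deviations mirror each other, so these values cannot settle whether libraries were paired. With the replicate number as a block, 55 genes, 1 member and 0 other pathway genes were called in limma. The member was Hpgd (limma adjusted p = 0.0387), while Ptgs1 had 0.0875 and Ptgds 0.0685. An unadjusted p under 0.05 was found in 12 other pathway genes and in 2537 of all 11780 genes.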
